A study of Mus musculus with 6 samples.

Results

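In the embryonic olfactory epithelium of G9a knockout mice, 1 library labelled as G9a knockout and GLP heterozygote (G9a KO GLP het) was set against 1 library of the G9a knockout alone (G9a KO). Every library of the comparison therefore shared the G9a knockout, and the labelled difference was GLP heterozygosity. The tissue was taken at E18.5, shortly before birth, from mice of mixed background, chiefly C57/B6. The labels do not state which exons were deleted, whether a Cre driver was used, or the sex and number of the embryos in a library. The authors' table gives FPKM, fragments scaled by transcript length and sequencing depth, with an interval around each value whose confidence level the file headers do not state. Olfactory receptor (Olfr) genes entered with at least 0.5 FPKM in either library, which kept 251 of 1119. Other genes entered with at least 1 FPKM in either library, which kept 14962 of 20214. Together these were 15213 of the 22029 symbols, and 696 symbols of very short RNAs were left out. The G9a het and G9a/GLP dKO (double knockout) libraries of the same table are given only as levels beside them.

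G9a (gene Ehmt2) and GLP (gene Ehmt1) work as a pair that places 1 or 2 methyl groups on histone H3 at lysine 9, a mark of silent chromatin. Each olfactory sensory neuron chiefly expresses one receptor gene out of a very large family, and most receptor genes sit in repressed chromatin in any one neuron. Receptor genes are expressed as neurons mature from basal progenitors, and the epithelium also holds supporting cells, glands and glia.

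With 1 library a side there is no replicate check. A difference between these libraries cannot be assigned to the genotype, since genotype, embryo, sex, dissection and library cannot be told apart. Genes are called higher or lower here when they were at least 2-fold apart, on log2(FPKM + 0.1) for receptors and log2(FPKM + 1) for other genes, so differences of low genes are understated. A fold printed for a single gene divides the FPKM values with nothing added, so it can exceed the gene's log2 ratio. Ehmt1 stood at 20.8 FPKM in G9a KO and 15.8 FPKM in G9a KO GLP het, with overlapping intervals (14.98 to 26.6 and 11.3 to 20.3). The G9a het and dKO libraries had 17.3 and 16.02 FPKM of Ehmt1, so gene-level FPKM did not separate the genotypes. Ehmt2, knocked out in both libraries compared, was listed at 30.2 and 32.5 FPKM, with 24.5 FPKM in G9a het and 30.4 FPKM in dKO. From the steps in the low receptor values, 1 fragment on 1 kb was worth an estimated 0.0681 FPKM in G9a KO and 0.163 FPKM in G9a KO GLP het. By this estimate the latter is the shallower library, and 3 fragments on 1 kb come to 0.204 and 0.489 FPKM. Genes listed at 0 numbered 3192 and 4382. They need not follow depth alone: dKO, at an estimated 0.0995 FPKM a fragment, had 4284 at 0.

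Most genes other than receptors had close levels in both libraries: 12875 of 14962 (86.1%) lay within 1.5-fold, and the median log2 ratio was −0.03. At least 2-fold higher in G9a KO GLP het were 250 genes (1.67%), and 559 (3.74%) were lower. Asking also that the deposited intervals be apart left 135 higher (0.902%) and 354 lower (2.37%). Lists of tissue and cell type genes are described in turn below, each by its count higher and lower and its median.

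**Figure D1:**
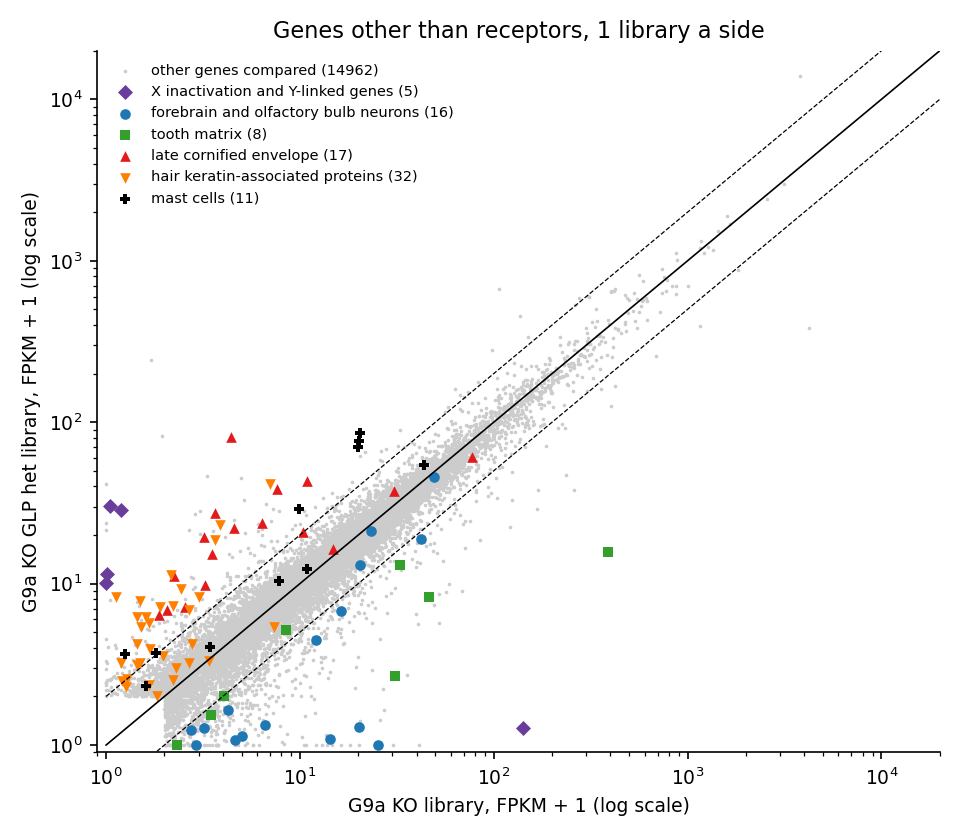
Level of the 14962 genes other than receptors in the G9a KO library (x axis) and the G9a KO GLP het library (y axis), both as FPKM + 1 on log scales, with 1 point a gene, the solid line at equal levels and dashed lines at 2-fold. Forebrain (blue) and tooth matrix (green) genes lie at or below the diagonal, and most late cornified envelope (red) and hair keratin-associated (orange) genes lie above it.

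Forebrain and olfactory bulb neuron genes had the most negative median of the lists compared. Of 16 genes, 13 were lower and 0 higher, all 13 with intervals apart, and the median log2 ratio was −1.41 beside −0.03 over all genes. Neurod6, a transcription factor of cortical projection neurons, was at 24.3 FPKM in G9a KO and listed at 0 in G9a KO GLP het. In the G9a het and dKO libraries Neurod6 was at 7.48 and 3.51 FPKM. Tbr1, which specifies deep-layer cortical and olfactory bulb projection neurons, was at 19.2 FPKM against 0.287 FPKM, 66.9-fold lower, with 5.16 and 16.3 FPKM in G9a het and dKO. For Neurod2, a relative of Neurod6, the levels were 13.4 and 0.0927 FPKM, and 3.27 and 1.71 FPKM in the other libraries. G9a KO GLP het thus had the lowest value of the 4 libraries for all 3 genes. Inhibitory and excitatory neuron genes went the same way: Gad1, which makes GABA, was at 3.64 and 0.0776 FPKM, and Slc17a7, a vesicular glutamate transporter, at 5.64 and 0.330 FPKM. Dlx5, shared with olfactory and facial tissue, was nearly level at 48.3 and 45.1 FPKM. The summed level of the list was 237 FPKM in G9a KO, 107 FPKM in G9a KO GLP het, 155 FPKM in G9a het and 157 FPKM in dKO. In bulk tissue, fewer cells of a type and less RNA per cell cannot be told apart.

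Several of the 10 genes with the lowest ratios are also genes of neurons or of choroid plexus. Ttr, the thyroid hormone carrier made by choroid plexus, was at 24.7 and 0.435 FPKM (65.6 in G9a het, 1.03 in dKO). Islr2, an axon growth protein, was at 25.8 and 1.24 FPKM, and Sez6, a dendrite protein, at 12.6 and 0.148 FPKM. Among genes picked after their values were seen, Rtn1 (168 and 36.8 FPKM) and Nsg2 (120.3 and 21.6 FPKM), both abundant in neurons, also stood lower. Zic1 and Zic2, transcription factors of the dorsal brain and meninges, stood at 18.9 and 2.53 FPKM and at 10.3 and 1.30 FPKM. The G9a KO value of Zic2 lies outside its own deposited interval. Ptgds, an enzyme of the meninges, was at 51.0 and 4.70 FPKM. Fabp7, a fatty acid binding protein of radial glia and olfactory ensheathing glia, was at 234 and 45.8 FPKM (85.4 in G9a het, 139 in dKO). The other 12 of 13 glial genes compared were within 2-fold, and the list's median log2 ratio was 0.10 with Sox10 at 9.32 and 10.8 FPKM. The part of brain tissue in the neuronal results below was not tested.

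Immature olfactory neuron genes were lower in 8 of 16 and higher in 0, with all 8 intervals apart and a median log2 ratio of −0.86. The 8 are cytoskeletal and axon growth genes that neurons in general express. Crmp1, an axon guidance mediator, was at 56.0 and 7.90 FPKM. Stmn3, a tubulin regulator, was at 70.2 and 15.7 FPKM, and Tubb3, neuronal tubulin, at 122 and 31.8 FPKM. Gap43, the growth cone protein, was at 92.8 and 38.6 FPKM. Of the 16, 15 had a log2 ratio below 0. Members within 2-fold included Gng8, the G protein subunit of immature olfactory neurons, at 19.3 and 17.7 FPKM. Nhlh1, a bHLH factor, was at 22.6 and 18.8 FPKM. The forebrain genes above are low in the same library as Crmp1 and Tubb3, and a link between them was not tested. In G9a het, Crmp1 was at 33.8 FPKM and Tubb3 at 95.9 FPKM.

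The odorant transduction genes of mature neurons were each within 2-fold, 0 of 16 higher and 0 lower, yet 14 of 16 had a log2 ratio below 0 and the median was −0.49. Omp, the marker of mature olfactory neurons, was at 36.0 FPKM in G9a KO and 21.2 FPKM in G9a KO GLP het, with 78.6 FPKM in G9a het and 24.0 FPKM in dKO. Its intervals, 24.2 to 47.9 and 13.04 to 29.4, overlapped. Gng13, a G protein subunit of odorant signalling, was at 40.7 and 20.7 FPKM, and Cnga2, the cyclic nucleotide-gated channel, at 11.4 and 6.01 FPKM. Gnal, the olfactory G protein alpha subunit, was at 18.3 and 12.2 FPKM, and Adcy3, the olfactory adenylyl cyclase, at 14.9 and 11.6 FPKM. On geometric means, the 16 genes stood at 9.91 and 7.14 FPKM, a ratio of 0.720. Transcription factors and cofactors that act on receptor choice were closer still, with 0 of 14 outside 2-fold and a median log2 ratio of −0.05. Lhx2 was at 50.2 and 45.7 FPKM, Ldb1, its cofactor, at 79.7 and 75.1 FPKM, and Kdm1a, the lysine demethylase LSD1, at 46.7 and 42.3 FPKM. Olfactory progenitor genes had 0 of 12 outside 2-fold (median −0.26), with Neurog1 at 2.37 and 3.49 FPKM. Proliferation genes were level: 0 of 25 were outside 2-fold, the median was 0.02, and Mki67 was at 38.4 and 38.9 FPKM. Horizontal basal cell genes had 0 of 9 outside 2-fold, with Krt5 at 376 and 314 FPKM and Trp63 at 35.0 and 32.1 FPKM.

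**Figure D2:**
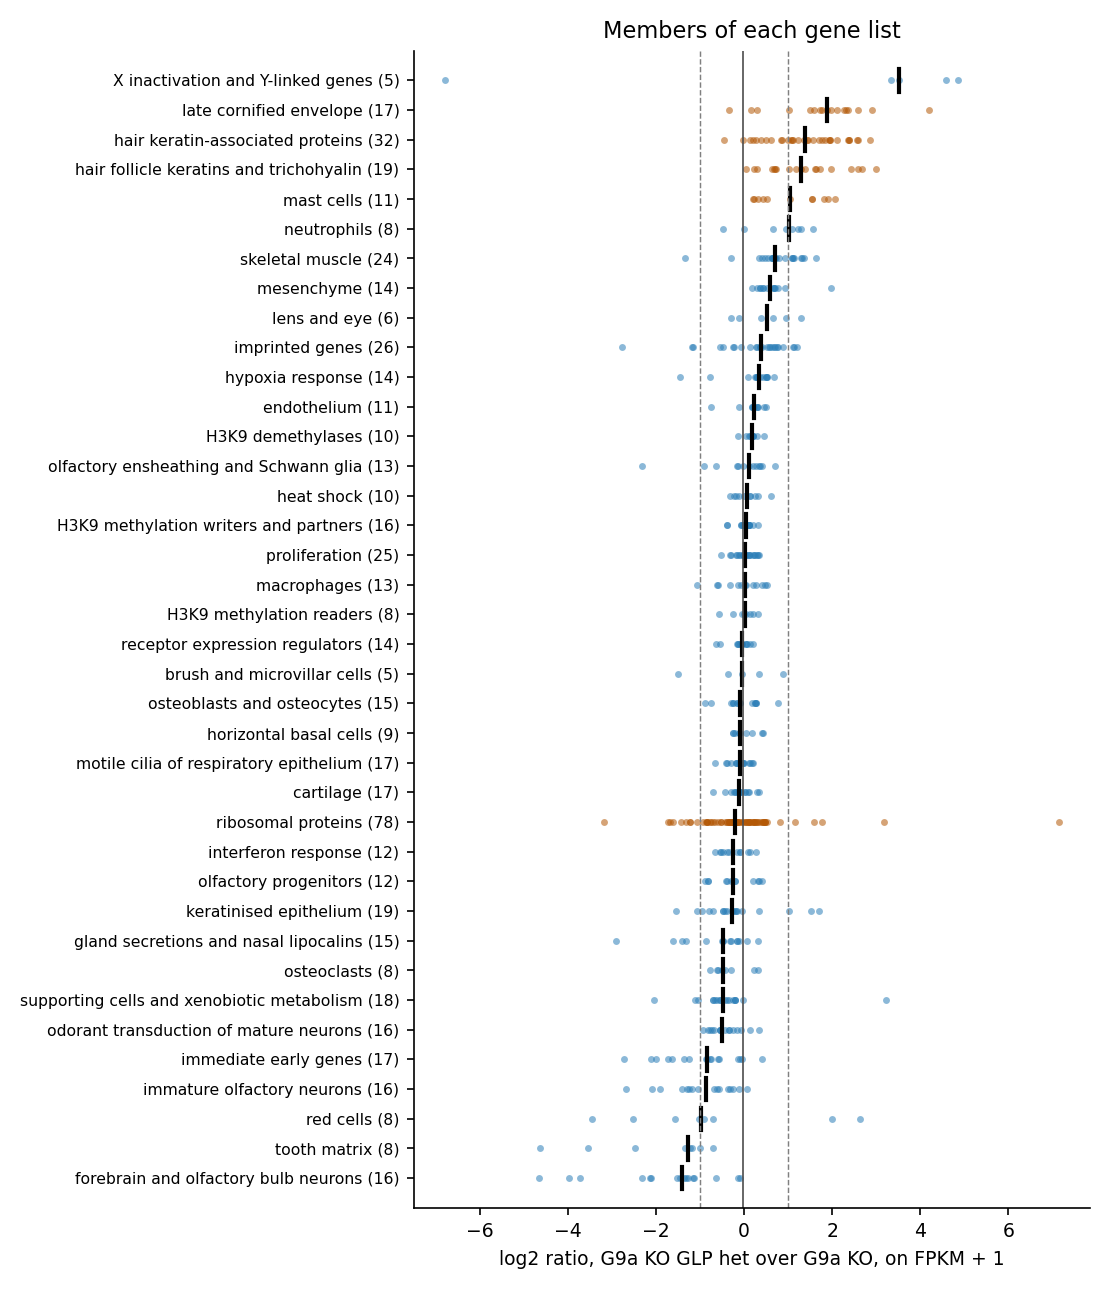
Log2 ratio of G9a KO GLP het over G9a KO, on FPKM + 1, for each compared member (points) of each gene list, with the number compared in brackets, the median as a black bar and dashed lines at 2-fold. Blue marks the lists set with the design and brown the lists added after values were seen. The medians run from −1.41 for forebrain neurons to 1.89 for the late cornified envelope, leaving aside the X and Y list.

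Secretory and detoxifying genes of the nasal lining stood lower. Of 18 supporting cell genes, 17 had a log2 ratio below 0, 3 were lower by 2-fold, 1 was higher, and the median was −0.48. Cyp2a5, a nasal cytochrome P450, was at 105 and 50.7 FPKM (163 in G9a het, 57.1 in dKO), and its neighbour in the family Cyp2a4 was at 8.97 and 1.42 FPKM. Reads that match both of these close copies make their single values uncertain. Cbr2, a carbonyl reductase, was at 382 and 260.3 FPKM, and Cyp2g1, a cytochrome P450 specific to olfactory mucosa, at 54.6 and 33.03 FPKM. Sult1c1, a sulfotransferase, went the other way, from 1.89 FPKM to 26.1 FPKM, 13.8-fold higher. Its level in G9a het was 11.1 FPKM and in dKO 0.991 FPKM, so the value in G9a KO GLP het was the highest of the 4. Gland products had 4 of 15 lower and 0 higher, with a median of −0.47. Lcn11, a lipocalin, was at 10.9 and 0.590 FPKM against 71.9 FPKM in G9a het and 0.221 FPKM in dKO. Muc5b, a gel-forming mucin, was at 15.5 and 5.18 FPKM, and Plunc, an airway secretory protein, at 870.3 and 626 FPKM. Of the genes with the lowest ratios, Defb14, an epithelial beta-defensin, was at 19.5 and 0.416 FPKM (19.8 in G9a het, 10.2 in dKO), and Chi3l4, a chitinase-like protein, at 34.8 and 1.72 FPKM (3.03 in G9a het, 0.0917 in dKO). The summed gland level ran 2139 FPKM in G9a het, 1243 FPKM in G9a KO, 837 FPKM in G9a KO GLP het and 697 FPKM in dKO. Motile cilia genes of the respiratory lining had 0 of 17 outside 2-fold (median −0.10), with Foxj1, their master regulator, at 30.9 and 30.4 FPKM. Brush and microvillar cell genes were mixed, with 1 of 5 lower: Ascl3 was at 5.65 and 1.35 FPKM, while Pou2f3, the tuft cell regulator, was at 1.66 and 3.92 FPKM.

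Tooth matrix genes were lower in 7 of 8, with 5 intervals apart and a median log2 ratio of −1.28. Amelx, the main enamel protein, was at 388 FPKM in G9a KO and 14.6 FPKM in G9a KO GLP het, 26.6-fold lower. In G9a het Amelx was at 737 FPKM and in dKO at 3.45 FPKM. Enam and Ambn, other enamel proteins, were at 29.9 and 1.66 FPKM and at 45.1 and 7.26 FPKM. Dspp, a dentin matrix protein, was at 31.9 and 12.0 FPKM, both below their own deposited intervals. Bone and cartilage genes, which are also made around the nasal cavity, were closer. Osteoblast genes had 0 of 15 outside 2-fold and summed to 6827 and 6898 FPKM, and cartilage genes had 0 of 17 outside 2-fold and summed to 482 and 461 FPKM. Osteoclast genes had 0 of 8 outside 2-fold with a median of −0.47, led by Ctsk at 308 and 216 FPKM.

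The late cornified envelope (Lce) family, which encodes cross-linked proteins of the outermost skin layer and clusters on chromosome 3, was taken as a list after values were seen. Of its 17 genes, 14 were higher and 0 lower, 11 with intervals apart, and the median log2 ratio was 1.89. The 80 bases before the RefSeq start (GRCm38.p6, chromosome 3) are shown for 5 members of the Lce1 subfamily to set the rule-named Lce1m beside close relatives. Capitals mark an A-rich run (AATAAAA) in 4 of them and a TATA box (TATAAA) in Lce1m, whose first base lies at −30 and −29 from the start.
Lce1b: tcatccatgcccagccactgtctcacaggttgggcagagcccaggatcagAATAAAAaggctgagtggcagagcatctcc
Lce1c: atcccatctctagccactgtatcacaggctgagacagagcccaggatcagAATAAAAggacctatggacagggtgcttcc
Lce1g: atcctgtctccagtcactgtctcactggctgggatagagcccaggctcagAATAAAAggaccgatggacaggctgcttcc
Lce1i: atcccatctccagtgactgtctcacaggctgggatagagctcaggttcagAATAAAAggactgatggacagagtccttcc
Lce1m: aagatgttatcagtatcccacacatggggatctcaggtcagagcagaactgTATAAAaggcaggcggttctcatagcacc

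Lce1m, placed on mm9 chromosome 3 from 92821729 to 92822982, had 3.43 FPKM in G9a KO and 80.5 FPKM in G9a KO GLP het, 23.5-fold higher. Its levels were 1.07 FPKM in G9a het and 106 FPKM in dKO, and the intervals of the compared libraries were 0.996 to 5.83 and 40.1 to 95.1. Lce1b was at 2.66 and 26.5 FPKM, Lce1c at 6.59 and 37.7 FPKM, Lce1g at 1.25 and 10.1 FPKM and Lce1i at 2.21 and 18.46 FPKM. All 5 were also high in dKO, from 16.8 FPKM for Lce1g to 106 FPKM for Lce1m, and low in G9a het, at most 5.42 FPKM. In contrast, the Lce3 members Lce3a (29.6 and 36.7 FPKM), Lce3b (13.7 and 15.5 FPKM) and Lce3f (76.0 and 59.7 FPKM) were close. The run AATAAAA, searched on both strands of the same 80-base windows, was in 8 of 16 Lce genes and in 2.21% of 32851 RefSeq promoters. TATAAA was in 2 of 16 Lce genes and in 4.75% of promoters. Both were picked after the sequences were seen, and a match describes letters, not a binding site.

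The fixed list of keratinised epithelium genes did not have the direction of the Lce genes. Of 19, 3 were higher, 2 lower, 15 had a log2 ratio below 0, and the median was −0.28. The 3 higher were products of dry, cornified skin: Lor, the loricrin of the cell envelope, at 96.5 and 281 FPKM, Ivl, involucrin, at 1.81 and 8.20 FPKM, and Krt10, the suprabasal skin keratin, at 260.4 and 529 FPKM. The 2 lower were keratins of moist stratified epithelium such as the oral lining, Krt4 at 1155 and 395 FPKM and Krt13 at 1819 and 871 FPKM, with overlapping intervals. Other skin genes of the list were within 2-fold, with Krt1 at 589 and 746 FPKM, Sbsn at 169.7 and 142 FPKM and Tgm3, a transglutaminase, at 18.3 and 9.003 FPKM. Krtdap was at 591 and 574 FPKM, both outside their own deposited intervals. Both values of Lor also lie above their own intervals (20.1 to 47.5 and 61.9 to 132). The G9a KO GLP het value of Ivl lies below its own interval of 9.01 to 24.2, so the ratios of Lor and Ivl are uncertain. The intervals of Krt10, 155 to 378 and 269 to 822, overlapped. In dKO Lor and Krt10 stood at 402 and 899 FPKM, and Krt4 at 446 FPKM. Krt77 and Krt76, taken after their values were seen, stood at 0.451 and 6.71 FPKM and at 22.6 and 1.94 FPKM.

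Hair follicle genes, listed after values were seen, were higher too. Of 19 hair follicle keratin and trichohyalin genes, 12 were higher and 0 lower, 8 with intervals apart, with a median of 1.29. Krt25, an inner root sheath keratin, was at 1.67 and 20.4 FPKM, Krt71, its type II partner, at 4.14 and 31.9 FPKM, and Tchh, trichohyalin, at 3.58 and 23.7 FPKM. Among 32 compared keratin-associated proteins, the matrix of the hair shaft, 21 were higher and 0 lower, 7 with intervals apart, with a median of 1.39. Krtap8-1 was at 5.97 and 40.5 FPKM and Krtap7-1 at 2.85 and 22.0 FPKM. For the hair lists G9a KO GLP het was the highest library: the keratin-associated proteins summed to 29.7 FPKM in G9a het, 44.2 FPKM in G9a KO, 199.7 FPKM in G9a KO GLP het and 74.8 FPKM in dKO. The late cornified envelope, by contrast, was highest in dKO, at 228, 172, 431 and 622 FPKM in the same order.

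Mast cell genes, a further list made after values were seen, were higher in 6 of 11 and lower in 0, all 6 with intervals apart, and the median was 1.04. Cpa3, the mast cell carboxypeptidase, was at 19.5 and 84.4 FPKM, Cma1, a chymase, at 19.3 and 75.1 FPKM, and Tpsb2, a tryptase, at 19.02 and 69.6 FPKM. Kit, the growth factor receptor that mast cells share with olfactory progenitors, was level at 9.85 and 11.4 FPKM. G9a het resembled G9a KO (Cpa3 19.7 FPKM), and dKO resembled G9a KO GLP het (Cpa3 82.4 FPKM). Neutrophil genes had 4 of 8 higher and 0 lower with a median of 1.02, but with 0 intervals apart, and S100a8 stood at 24.4 and 48.1 FPKM. Macrophage genes were level, with 0 of 13 higher and 1 lower (median 0.02) and Csf1r at 16.7 and 15.7 FPKM.

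Skeletal muscle genes were higher in 8 of 24 and lower in 1, and 22 of 24 had a log2 ratio above 0 (median 0.69). Acta1, skeletal actin, was at 273 and 591 FPKM, with 407 FPKM in G9a het and 537 FPKM in dKO. Ttn, the giant sarcomere spring, was at 4.40 and 15.7 FPKM, and Myog, the muscle differentiation factor, at 12.7 and 28.2 FPKM. Myh2, a fast myosin, was the exception at 2.77 and 0.498 FPKM. Mesenchyme genes all lay above 0 on the log2 scale, 14 of 14, with a median of 0.59 and 1 of them at least 2-fold higher. That gene was Twist2, a factor of the dermis and craniofacial mesenchyme, at 4.24 and 19.7 FPKM (2.65 in G9a het, 20.9 in dKO). Col3a1, a fibrillar collagen, was at 421 and 669 FPKM and Postn, periostin, at 402 and 647 FPKM. Dpt (19.6 and 69.3 FPKM), a dermal matrix protein, and Agtr2 (62.4 and 159.6 FPKM), an angiotensin receptor of fetal mesenchyme, were picked after their values were seen. Endothelial genes had 0 of 11 outside 2-fold (median 0.22). Lens and eye genes had 1 of 6 higher, the pigment enzyme gene Dct at 1.59 and 5.34 FPKM, and 0 lower (median 0.52).

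**Figure D3:**
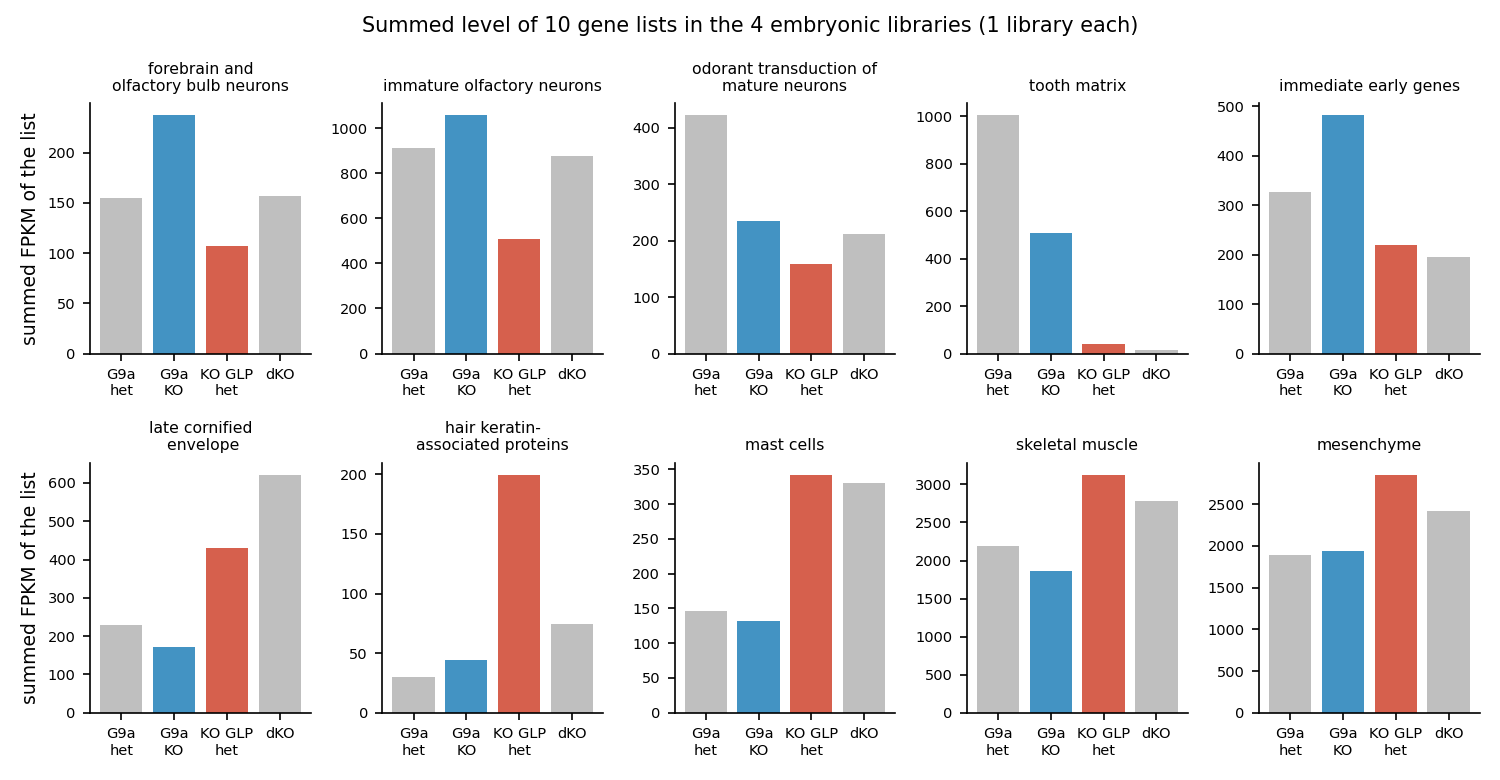
Summed FPKM of 10 gene lists in the 4 embryonic libraries, 1 bar a library with no error because each genotype has 1 library, and each panel's y axis starting at 0. G9a KO (blue) and G9a KO GLP het (red) differ most for tooth matrix (509 against 41.3 FPKM) and hair keratin-associated proteins (44.2 against 199.7 FPKM).

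Immediate early genes, which cells switch on within minutes of stimulation or handling, were lower in 7 of 17 and higher in 0, 5 with intervals apart, with a median of −0.84. Fos, the AP-1 subunit, was at 48.0 FPKM in G9a KO and 6.38 FPKM in G9a KO GLP het, and at 14.9 FPKM in G9a het and 8.42 FPKM in dKO. Egr1 was at 50.1 and 14.4 FPKM, and Atf3, a stress factor, at 11.9 and 2.01 FPKM. G9a KO had the highest value of the 4 libraries for each of these. Heat shock genes had 0 of 10 outside 2-fold (median 0.07), interferon response genes 0 of 12 (median −0.25) and hypoxia response genes 0 of 14 higher and 1 lower (median 0.33).

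Red cell genes were lower in 4 of 8 and higher in 2, with a median of −0.97. The 2 adult alpha globin genes moved in opposite directions: Hba-a1 was at 4218 and 382 FPKM, and Hba-a2 at 106 and 667 FPKM. The table places both at the same mm9 position (chromosome 11, 32183672 to 32184493), and the deposited value of Hba-a1 in G9a KO lies above its own interval of 1399 to 2694. Both values of Hba-a2 also lie above their own intervals. The coding sequences of the 2 genes in GENCODE M21 differ at 1 of 429 bases (99.8% identity). The first 90 coding bases are the same in both and are shown in lower case to make plain that fragments from this stretch cannot be assigned to one gene.
Hba-a1: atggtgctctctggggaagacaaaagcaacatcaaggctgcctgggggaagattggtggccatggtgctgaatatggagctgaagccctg
Hba-a2: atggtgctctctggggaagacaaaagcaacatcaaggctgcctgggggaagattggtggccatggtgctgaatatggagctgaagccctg
Alas2, the heme synthesis enzyme of red cells, which has no such copy, was at 39.3 and 12.7 FPKM, with intervals apart. The beta globin genes Hbb-b2 (166 and 28.0 FPKM) and Hbb-b1 (6.29 and 27.9 FPKM) are also listed at one position, so the same caution holds for them.

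The same caution holds for several of the largest single ratios. Rps12, a ribosomal protein gene, was at 0.710 FPKM in G9a KO and 242 FPKM in G9a KO GLP het, and at 0.599 and 0.187 FPKM in G9a het and dKO. Ppia, cyclophilin A, was at 0.939 and 81.2 FPKM with 1.71 and 2.36 FPKM in the other libraries, and Rpl17 at 3.996 and 44.2 FPKM with 2.34 and 3.82 FPKM. These are abundantly expressed genes with many processed copies in the genome, so their values near 0 in 3 libraries make the ratios uncertain. Tsnax stood at 2.32 and 45.1 FPKM, and its G9a KO value lies outside its own interval. Over 78 ribosomal protein genes, listed after values were seen, 5 were higher and 9 lower with a median of −0.20. Amd1 (0.0426 and 6.96 FPKM) and Amd2 (7.11 and 0.0503 FPKM), listed at one position, mirrored each other, as did Pisd-ps1 (7.28 and 0.00972 FPKM) and Pisd-ps3 (5.68 and 30.3 FPKM).

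Some genes were at 0 in 1 library alone. Bclaf1 was listed at 0 in G9a KO and at 40.7 FPKM in G9a KO GLP het, and Grsf1 at 40.3 FPKM and 0, while both were above 38 FPKM in the other libraries. Mia3, on an unplaced contig of chromosome 1, was at 29.1 FPKM and 0, and Plac9 at 23.7 FPKM and 0. The G9a KO value of Plac9 lies outside its own deposited interval, which runs from 0 to 0. Of 56 genes on unplaced contigs, 25 were above 0 in G9a KO, 23 in G9a het, 21 in dKO and 0 in G9a KO GLP het, and all 14 that were compared counted as lower. In all, 9 genes stood at 0 in G9a KO GLP het with at least 10 FPKM in each other library. A value of 0 in these genes is therefore given as listed and not as absence of RNA.

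Genes of the histone H3 lysine 9 methylation system were close in both libraries. Writers and partners had 0 of 16 outside 2-fold (median 0.04), with Setdb1 at 16.4 and 18.9 FPKM, Setdb2 at 6.28 and 5.93 FPKM and Wiz, a zinc finger partner of G9a and GLP, at 25.2 and 19.2 FPKM. Readers had 0 of 8 outside 2-fold (median 0.01), with Cbx5, which encodes HP1 alpha, at 39.8 and 43.9 FPKM and Cbx3, HP1 gamma, at 26.1 and 17.1 FPKM. Demethylases had 0 of 10 outside 2-fold (median 0.19), with Kdm3a at 17.3 and 19.7 FPKM and Kdm4c at 7.53 and 8.81 FPKM. Of 29 germline genes that this mark is known to silence in other mouse cells, 3 reached 1 FPKM in either library and 0 of these were outside 2-fold. Brdt was at 3.12 and 2.79 FPKM, and Dazl, under the floor, at 0.261 and 0.195 FPKM. Listed at 0 were 11 of the 29 in G9a KO, against 15 in the other library.

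Imprinted genes, expressed from one parental allele, had 3 of 26 higher and 3 lower, all 6 with intervals apart, and a median of 0.38. Dlk1, a fetal growth regulator, was at 56.7 and 123 FPKM, Peg10 at 17.5 and 41.6 FPKM and Zim1 at 14.6 and 33.5 FPKM. Meg3, the noncoding RNA of the Dlk1 region, was at 126 and 232 FPKM. Nnat, neuronatin, which developing brain expresses strongly, was at 259.6 and 37.2 FPKM, Snrpn, a neuronal splicing protein gene, at 33.5 and 14.4 FPKM and Rasgrf1, a neuronal exchange factor, at 1.89 and 0.279 FPKM. H19 (2553 and 2428 FPKM) and Igf2 (869 and 1118 FPKM), which share an imprinting control region, were within 2-fold. The dKO library had Dlk1 at 114 FPKM and Nnat at 156 FPKM.

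The libraries also differed in sex-linked genes. Xist, the RNA that coats the inactive X in female cells, was at 140.2 FPKM in G9a KO and 0.272 FPKM in G9a KO GLP het, 516-fold lower. The Y-linked genes were the other way round: Ddx3y was at 0.0489 and 29.2 FPKM, Eif2s3y at 0.195 and 27.7 FPKM, Uty at 0.00544 and 10.4 FPKM and Kdm5d at 0.00413 and 9.13 FPKM. In G9a het, Xist was at 0.242 FPKM and Ddx3y at 33.6 FPKM, and in dKO at 208 FPKM and 0. Sex and GLP genotype therefore cannot be told apart in this pair. Over the 502 other X-linked genes, 5 were higher and 28 lower (5.58%), with a median of −0.01, beside 241 higher and 516 lower (3.57%) of 14441 autosomal genes. Of the 4 X-linked genes with a Y-linked partner, a list added after values were seen, 0 were outside 2-fold and the median was −0.40. Kdm6a was at 14.4 and 9.81 FPKM and Kdm5c at 24.6 and 19.5 FPKM. Amelx is on the X chromosome, and the part of sex in its difference was not tested.

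Turning to the receptors, 89 of 251 (35.5%) were at least 2-fold higher and 85 (33.9%) at least 2-fold lower in G9a KO GLP het, so 69.3% lay outside 2-fold. This share cannot be set against the 5.41% of other genes, whose pseudocount and floor are higher. With a pseudocount of 1 FPKM, 15 receptors were higher and 19 lower. The estimated depth differed beside this result. Over 973 receptors with a short span, the receptor signal came to an estimated 3965 fragments for G9a KO and 1448 for G9a KO GLP het. Intervals were apart for only 16 higher receptors (6.37%) and 30 lower ones (12.0%). Near the threshold, 39 receptors reached between 0.5 and 0.6 FPKM in their higher library and entered, and 52 between 0.4 and 0.5 FPKM did not. Among the 182 above 0 in both libraries, 61 were higher (33.5%) and 44 lower (24.2%), with a median log2 ratio of 0.23. This left out 41 receptors at 0 in G9a KO GLP het and 28 at 0 in G9a KO. Most of the 61 and of the 44 entered only through the library where they were higher. Of the 70 at 0.5 FPKM or more in both, 8 were higher and 9 lower (median −0.13). The lean to higher among the 182 thus depends on how receptors entered. Divided by the geometric mean of the 16 transduction genes, a scaling for the amount of mature neuron RNA, 133 of 290 were higher and 70 lower. The scaling raised the G9a KO GLP het values before the floor of 0.5 FPKM was applied. Receptors beyond the 251 thus entered by their G9a KO GLP het values alone, so the shift to higher follows in part from the scaling itself.

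**Figure D4:**
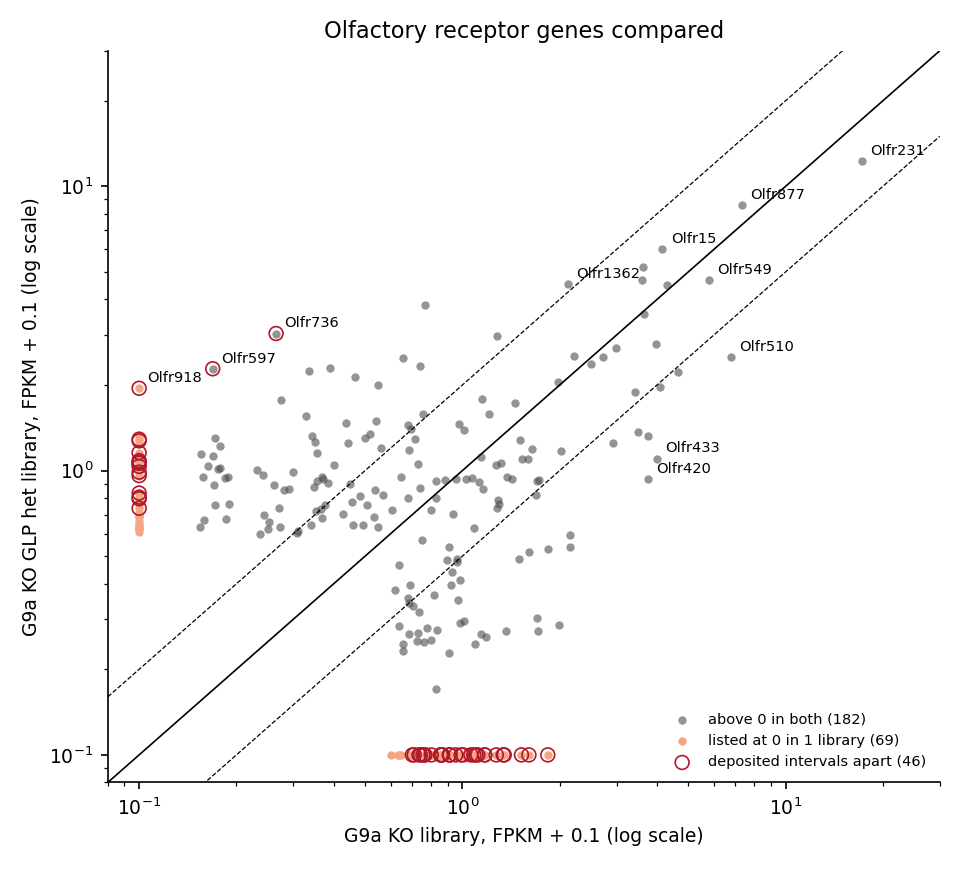
Level of the 251 compared receptor genes in G9a KO (x axis) and G9a KO GLP het (y axis), as FPKM + 0.1 on log scales, with the solid line at equal levels, dashed lines at 2-fold, receptors listed at 0 in 1 library in orange and rings around the 46 with intervals apart. The highest receptors, such as Olfr231 and Olfr877, lie near the diagonal, and all but 2 of the rings lie on an axis edge, at 0 in 1 library.

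Olfr231 (mm9 chromosome 1, 176047222 to 176048145) was the highest in both, at 17.1 FPKM in G9a KO and 12.1 FPKM in G9a KO GLP het, against 1.15 FPKM in G9a het and 94.6 FPKM in dKO. Olfr877 on chromosome 9 came next in both, at 7.23 and 8.49 FPKM, with 0.162 FPKM in G9a het and 3.57 FPKM in dKO. Olfr510 (6.69 and 2.41 FPKM), Olfr549 (5.70 and 4.57 FPKM) and Olfr464 (4.56 and 2.12 FPKM) completed the top 5 of G9a KO. Olfr15 (4.06 and 5.90 FPKM), Olfr513 (3.52 and 5.10 FPKM) and Olfr509 (3.49 and 4.58 FPKM) completed that of G9a KO GLP het. The top 5 held 13.3% of receptor FPKM in each library. Of these 8 receptors, Olfr510 and Olfr464 were lower by 2-fold, and the intervals of all 8 overlapped. Among the 19 receptors that reached 3 FPKM in either library, 10 were within 2-fold, 7 were lower and 2 were higher, and 0 had intervals apart.

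At 0.5 FPKM or more in both libraries were 70 receptors. Of these, 53 were within 2-fold, 8 were higher and 9 lower, 0 had intervals apart, and the median levels were 1.25 and 1.17 FPKM. A further 84 reached 0.5 FPKM in G9a KO alone, with a median of 0.766 FPKM, and 41 of them were listed at 0 in G9a KO GLP het. Another 97 reached it in G9a KO GLP het alone, with a median of 0.791 FPKM, and 28 of them were listed at 0 in G9a KO.

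Of the 46 receptors with intervals apart, 44 were listed at 0 in 1 library. The deposited interval of such a 0 runs from 0 to 0, so any lower bound above 0 in the other library counts as apart. Receptor bounds can also fall on the same steps in both libraries, though the estimated worth of 1 fragment differs. For Olfr1494 the upper bound in G9a KO and the lower bound in G9a KO GLP het are both 0.132 FPKM. Whether the intervals carry each library's own depth was not tested. All 30 lower ones were at 0 in G9a KO GLP het, from 0.601 to 1.74 FPKM in G9a KO, and 14 of the 16 higher ones were at 0 in G9a KO. Olfr918 on chromosome 9 was the highest of the latter, at 0 and 1.85 FPKM, with 1.35 FPKM in G9a het and 0 in dKO. The remaining 2 were above 0 in both. Olfr597, on mm9 chromosome 7 from 110468927 to 110469874, was at 0.0689 and 2.18 FPKM, 31.7-fold higher, with 0.307 FPKM in G9a het and 1.22 FPKM in dKO. Olfr736, on mm9 chromosome 14 from 51012433 to 51013371, was at 0.165 and 2.94 FPKM, 17.8-fold higher, with 1.80 FPKM in G9a het and 0 in dKO. The value 0.0689 FPKM of Olfr597 corresponds to about 1 fragment in G9a KO. At the other end, Olfr578 was at 1.90 and 0.186 FPKM and Olfr266 at 1.61 and 0.173 FPKM, 10.2-fold and 9.32-fold lower, with overlapping intervals. By the estimate, 0.186 and 0.173 FPKM each correspond to about 1 fragment in G9a KO GLP het. Among receptors above 0 in both libraries, the 10 lowest log2 ratios ran from −2.80 for Olfr578 to −1.999 for Olfr530, and the 10 highest from 2.60 for Olfr154 to 3.76 for Olfr597. Of these 20, Olfr597 and Olfr736 alone had intervals apart.

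Receptor genes lie in clusters, and some chromosomes differed from the 35.5% higher and 33.9% lower over all 251 receptors. On chromosome 2, 24 of 46 compared receptors were higher and 10 lower, with a median log2 ratio of 1.17. Among its 33 above 0 in both libraries, 17 were higher and 4 lower. Chromosome 11 was the other way, with 4 of 20 higher and 13 lower and a median of −1.47. Among its 14 above 0 in both, 3 were higher and 8 lower. On both chromosomes each receptor called, other than Olfr464 on chromosome 11, was under 0.5 FPKM in its lower library. Such receptors entered only through the library where they were higher, so these counts and medians depend on the floor. Leaving out receptors at 0 does not remove this. Chromosomes 7 and 9 were near the shares over all receptors. Chromosome 7, with 62 receptors, had 21 higher and 22 lower (median −0.10), and chromosome 9, with 34, had 13 and 11 (median 0.42). The class I receptors, an evolutionarily older group in a single cluster of 124 genes on chromosome 7, had 15 of 35 higher and 11 lower with a median of −0.04. No test of a chromosome difference was run, since neighbouring receptors share sequence and depth and each side is 1 library.

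**Figure D5:**
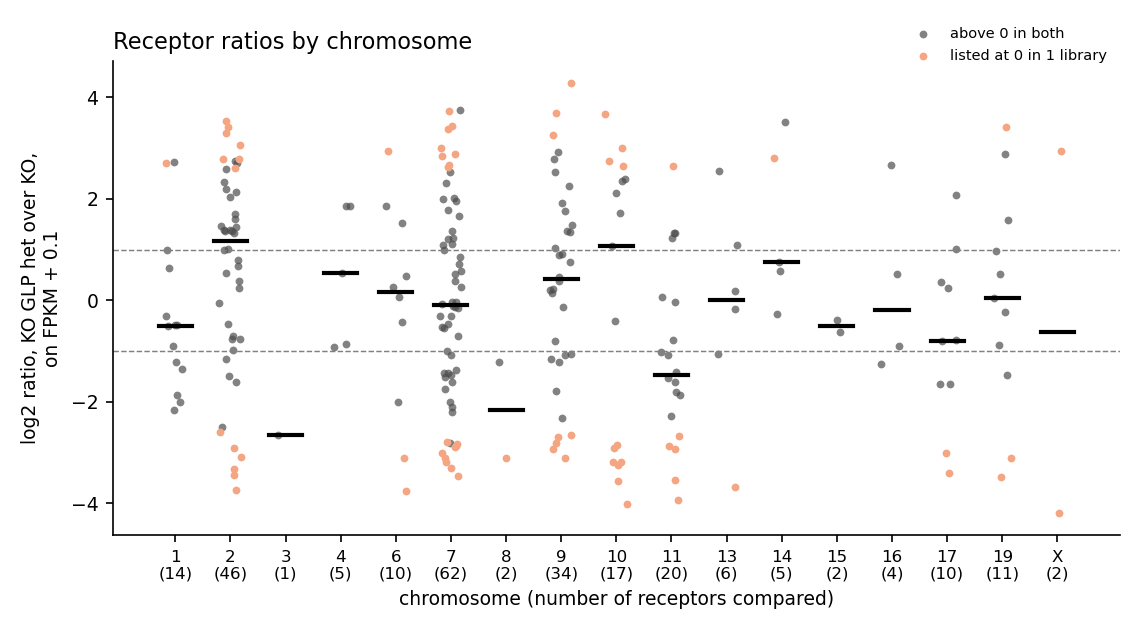
Log2 ratio of G9a KO GLP het over G9a KO, on FPKM + 0.1, for each of the 251 compared receptors by chromosome (number compared in brackets), with medians as black bars, dashed lines at 2-fold and receptors listed at 0 in 1 library in orange. Chromosome 2 receptors have a median of 1.17 and chromosome 11 receptors a median of −1.47.

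Most neighbours of Olfr231 had the higher value in G9a KO. Olfr427, next to it, was the exception at 0.350 and 0.795 FPKM. Further on that side, Olfr429 was at 1.63 and 0.825 FPKM, Olfr430 at 0.821 and 0.295 FPKM and Olfr433 at 3.89 and 1.0 FPKM. On the other side of Olfr231, Olfr424 was at 0.188 FPKM and 0, and Olfr420 at 3.65 and 0.834 FPKM. Olfr419, beyond Olfr420, was at 3.88 and 2.69 FPKM. In dKO Olfr433, Olfr420 and Olfr419 stood at 14.2, 15.3 and 11.9 FPKM, and in G9a het at 0.2999, 1.67 and 0.948 FPKM. Olfr432, next to Olfr433 and with 84.7% identity to its coding sequence in GENCODE M21, was at 0.996 and 0.145 FPKM. The intervals of all of these neighbours overlapped. On chromosome 13 Olfr1362 was at 2.02 and 4.42 FPKM (12.1 in dKO) and Olfr1361 nearby at 2.12 and 2.43 FPKM (18.2 in dKO). Olfr11, which lies between them, was at 0.968 and 0.842 FPKM. The stretch was mixed, with Olfr1366 at 0.291 and 2.20 FPKM and Olfr1364 at 0.396 FPKM and 0. Olfr1535 was at 1.17 FPKM and 0, with intervals apart. On chromosome 11 Olfr1377 and Olfr51, neighbours again, stood at 2.05 and 0.494 FPKM and at 1.74 and 0.429 FPKM. Olfr54, next to Olfr51, was nearly level at 0.785 and 0.826 FPKM, and Olfr1378, next to Olfr1377, was at 0.553 and 0.146 FPKM. Receptors of these neighbourhoods other than Olfr231, Olfr432, Olfr420 and Olfr1535 were picked after their values were seen.

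Summed over all receptors, the level was 311 FPKM in G9a KO and 272 FPKM in G9a KO GLP het, a ratio of 0.875. Relative to the transduction genes the same ratio was 1.22. An effective number of receptors (exponential Shannon entropy over their FPKM shares) was 274 and 213, a ratio of 0.779, but among receptors at 0.5 FPKM or more in the library the ratio was 1.15. The direction of both measures thus turned with the way they were computed. G9a KO GLP het, the shallower library by the estimate, lists 758 receptors at 0 against 499 in G9a KO. Trace amine receptors, a small separate family of olfactory receptors, were mostly under the floor. In the list that holds them with necklace neuron genes, 4 of 20 were compared, 1 higher and 1 lower. The higher one was Taar7a, at 0.0974 and 1.67 FPKM, with 0.860 FPKM in G9a het and 1.02 FPKM in dKO.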

How the data were processed

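PolyA RNA of 4 embryonic libraries, 1 per genotype, was made into libraries with a ScriptSeq kit, per the labels' protocols. TopHat, Cufflinks and Cuffdiff were used with mouse build mm9, per the submitters' processing notes. The authors deposited FPKM per gene symbol with interval bounds, per the file headers. Not given in the sources used here were versions, annotation, interval level and the handling of reads with several matches, and total depth is unknown. Groups came from the labels.

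Log2 ratios are on log2(FPKM + 1), with 0.1 added in place of 1 for Olfr genes, at floors of 1 and 0.5 FPKM, counted from 2-fold, with pandas 2.3.3 and no test. Folds of single genes are on FPKM with nothing added. Very short RNAs (symbols beginning n-R, Scarna, Rnu, Snor or Mir) were not analysed. The worth of 1 fragment was estimated from steps in low FPKM of Olfr genes under 1100 bp, a procedure tested on simulated data. Values outside their own interval, 321 among other genes and 0 among Olfr genes, were kept. Promoter sequences are RefSeq's. Coordinates are the authors', written from 1.

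The comparison, 36 gene lists and named-gene rule were chosen with earlier results of these data known, and 6 lists after values were seen here. By that rule, the text names Ehmt1 and Ehmt2, the 10 genes highest and 10 lowest in ratio at 5 FPKM or more, the 5 highest genes listed at 0 in 1 library, the top and most divergent receptors and up to 4 members per list. List members beyond these were chosen after their values were seen. A few genes that the rule would name are not reported here.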

Additional observations from a re-analysis of the deposited data

How the results depend on the processing

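No paired analysis was possible because each genotype has 1 library, and leaving out a replicate was impossible for the same reason. Receptors 2-fold higher and lower numbered 89 and 85. They came to 15 and 19 with a pseudocount of 1 FPKM, 10 and 10 with a floor of 2 FPKM, 173 and 274 with no floor, and 16 and 30 with intervals apart. Without genes listed at 0, an alternative chosen after seeing the data, 44 were lower. Other genes higher and lower numbered 250 and 559. They came to 450 and 866 with a pseudocount of 0.1 FPKM, 163 and 315 with a floor of 5 FPKM, and 135 and 354 with intervals apart. The counts of other genes were within 1.5 times the reported ones without unplaced contigs (250 and 545) and without X-linked and Y-linked genes (241 and 528), both chosen after seeing the data. The receptor sum ratio of 0.875 turned to 1.22 relative to transduction genes, by its construction, and the effective number ratio of 0.779 to 1.15 with a floor of 0.5 FPKM, whose cause was not tested. With the other pseudocount, 41 of 99 named ratios, all of them receptors, came inside 2-fold. Lists with a median at least 1.5-fold from 1 numbered 13, and 13 to 16 under 3 alternatives. Low fragment numbers limit the receptor ratios: by the estimate, 3 fragments on 1 kb come to 0.204 FPKM in G9a KO and 0.489 FPKM in G9a KO GLP het.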

Other observations

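All genes of this section were chosen after their values were seen, and their values are given without a test. Levels are FPKM in G9a KO and then in G9a KO GLP het. Genes of skin and connective tissue that no list held were among the higher ones. Stfa3, a stefin of stratified epithelium and leukocytes, was at 135 and 455 FPKM (28.9 in G9a het, 723 in dKO). Cxcl14, a chemokine of skin, was at 19.5 and 60.5 FPKM (11.02 in G9a het, 55.2 in dKO). Calca, the calcitonin gene-related peptide gene, was at 0.718 and 7.09 FPKM (3.01 in G9a het, 10.02 in dKO). Muscle genes outside the list had the same direction as the list: Casq2, a calcium store protein, was at 30.97 and 69.98 FPKM, Cav3, the muscle caveolin, at 9.69 and 25.6 FPKM, and Vgll2, a muscle transcription cofactor, at 3.33 and 14.2 FPKM.

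Fndc1, a matrix protein gene, was at 5.10 and 22.5 FPKM, with 5.77 FPKM in G9a het and 6.30 FPKM in dKO, so G9a KO GLP het stood above all 3 other libraries. Snx9, a membrane trafficking gene, was likewise at 2.04 and 19.4 FPKM, with 2.20 and 2.38 FPKM in the other libraries. Zzz3 was listed at 0 in 3 libraries and at 15.3 FPKM in G9a KO. Ttbk2, a cilium assembly kinase gene, was listed at 0 in G9a het and G9a KO, and stood at 8.78 FPKM in G9a KO GLP het and 9.54 FPKM in dKO. Among the lower genes, Igfbpl1, a growth factor binding protein of developing neurons, was at 10.8 and 0.926 FPKM, and Defb4, a beta-defensin beside Defb14 on chromosome 8, at 53.8 and 12.8 FPKM. The vomeronasal receptor gene Vmn1r87 was at 0.153 and 2.46 FPKM with intervals apart. Its relatives Vmn1r206 (1.96 and 0.401 FPKM) and Vmn1r37 (2.10 and 0.793 FPKM) had the higher value in G9a KO and overlapping intervals.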
